A study of Mus musculus with 6 samples.

Results

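The genes described here are 5 connexins, Gja1, Gjb1, Gjb2, Gjc1 and Gjc3, and 1 pannexin, Panx1, of cultured mouse Schwann cells (SCs), 6 genes of the 55401 in the count table. They were chosen by name, through the Ensembl identifier with its version left off and the symbol that the GRCm38 annotation of GENCODE gives it. All 6 had a row and all 6 were among the 22318 genes that passed the low-count filter (2 or more counts in 5 or more of the 6 libraries). Bulk RNA-seq was made from primary SCs cultured out of dorsal root ganglia of adult mice on a C57BL/6 background, with 3 WT cultures and 3 Plxnb1-/- cultures. Plxnb1 encodes Plexin-B1, a semaphorin receptor, and the Plxnb1-/- mice carry a constitutive gene trap with a lacZ reporter in that gene, so every cell of the animal lacks the intact gene, not SCs alone. All 6 cultures were grown in the same medium with forskolin, neuregulin, serum and ascorbic acid, had passed through a magnetic step that removes Thy1-positive fibroblasts, and received no other treatment that the labels name. Nothing states whether the 3 cultures of a genotype came from separate mice, so p-values measure only the spread between these cultures. Values are CPM (exon counts scaled to the TMM-normalized library size) unless another scale is named, errors are SDs over 3 cultures, and differences are Plxnb1-/- minus WT.

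Connexins are membrane proteins that assemble into hemichannels, and hemichannels of neighboring membranes dock into gap junctions that pass ions and small metabolites. In myelinating SCs the connexin Cx32, the product of Gjb1, joins the layers of the same cell's own myelin at incisures and paranodes, and loss of its function causes the X-linked form of Charcot-Marie-Tooth neuropathy. Pannexins resemble connexins in fold but not in sequence, form channels rather than gap junctions, and are known for the release of ATP.

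Connexins share a spacing of cysteines in the first extracellular loop, the part that takes part in docking. The coding windows that hold it are shown because counts of related genes can be told apart only where their sequences differ. Each is read on the gene's own strand from the principal GENCODE transcript (GRCm38), in the 5′ to 3′ direction, and the capitals mark the 3 cysteine codons.
Gja1 (chr10:56387706-56387741, plus strand): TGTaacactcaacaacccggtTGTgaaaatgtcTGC
Gjb1 (chrX:101384324-101384359, plus strand): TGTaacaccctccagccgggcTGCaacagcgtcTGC
Gjb2 (chr14:57100558-57100593, minus strand): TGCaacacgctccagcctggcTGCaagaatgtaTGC
Gjc1 (chr11:102800984-102801019, minus strand): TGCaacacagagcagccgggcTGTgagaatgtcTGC
Gjc3 (chr5:137957797-137957832, minus strand): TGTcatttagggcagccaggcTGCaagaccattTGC
Every window lies in coding exon sequence. Gjb1 and Gjb2, both of the beta group, were the pair with the most bases in common, 29 of 36. Gja1 and Gjc3 had the fewest in common, 18 of 36. The spacing was not found in the reading frame of Panx1. Over the aligned coding sequence Gjb1 and Gjb2 were 67.8% identical, and the other pairs of the 6 genes, Panx1 included, lay between 55.3% and 62.2%. Bases set against a gap were left out of these shares, and no unrelated gene was aligned for comparison. The pairs with Panx1 were not set apart from those between connexins, so the shares do not measure relatedness. No stretch of 50 bases in the exons of the 6 genes also occurred in another connexin or pannexin. For Gjb1, Gjb2 and Panx1 no such stretch occurred in any other gene. The share with a match elsewhere was 0.115% for Gja1, 0.0396% for Gjc1 and 2.07% for Gjc3, and no exon of the 6 genes overlapped an exon of another gene.

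Total counts ran from 59252048 to 77280964 per library, so that 3 counts, taken as the smallest detectable number, equal between 0.0383 and 0.0513 CPM (counting error only). Plxnb1, the targeted gene, was lower in every Plxnb1-/- library, with a log2 fold change of −2.08 (adjusted p = 0.0449, edgeR). The SC marker Sox10, a transcription factor of the SC lineage, was at 432 to 580 CPM. WT replicate 2 stood apart from the other libraries on the first principal component, at −47.4 against −7.52 to 34.0. It had the lowest summed SC markers of the 6 libraries and the highest summed fibroblast and mural markers. The values that moved most without it are given beside the results.

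The first question was how much of each transcript the cultures held, which was compared between genes only per length, as CPM per kb of merged exons. Gja1 (Cx43), the most widespread connexin and the main one of astrocytes, led in both genotypes, with 25.1 ± 0.903 CPM per kb in WT and 23.1 ± 1.75 in Plxnb1-/- cultures. Gjc3 (Cx29), which in myelinating SCs lies at the innermost myelin membrane facing the axon, followed among the 6 genes with 11.7 ± 0.465 in WT and 13.3 ± 1.69 in Plxnb1-/- cultures. Gjb1, the myelin connexin, came last in WT with 6.72 ± 1.37 CPM per kb. The level of Gja1 was thus several times that of Gjb1 in these cultures.

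In WT the order per length among the 6 genes was Gja1, Gjc3, Gjb2, Panx1, Gjc1 and Gjb1. Gja1 ran from 24.2 to 26.0 CPM per kb and did not overlap Gjc3, at 11.2 to 12.04. Gjc3 overlapped Gjb2, at 9.10 to 12.6, which in turn lay above Panx1, at 8.02 to 8.65, in all 3 cultures. Panx1 and Gjc1, at 6.66 to 8.32, overlapped, as did Gjc1 and Gjb1, at 5.20 to 7.86, so neither of these pairs of neighbors was set apart by its spread, while Panx1 was above Gjb1 in every WT culture.

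In Plxnb1-/- cultures the order was Gja1, Gjc3, Panx1, Gjb1, Gjc1 and Gjb2. Gja1, at 21.4 to 24.9 CPM per kb, and Gjc3, at 11.4 to 14.6, again stood apart from each other and from the rest. Panx1 (8.51 to 8.85), Gjb1 (7.40 to 8.92), Gjc1 (7.03 to 8.65) and Gjb2 (6.54 to 8.44) followed, and each of these overlapped its neighbor in the order. Gjb2 went from the third place of 6 in WT to the last, and Gjb1 passed Gjc1, a pair that overlapped in both genotypes.

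**Figure D1:**
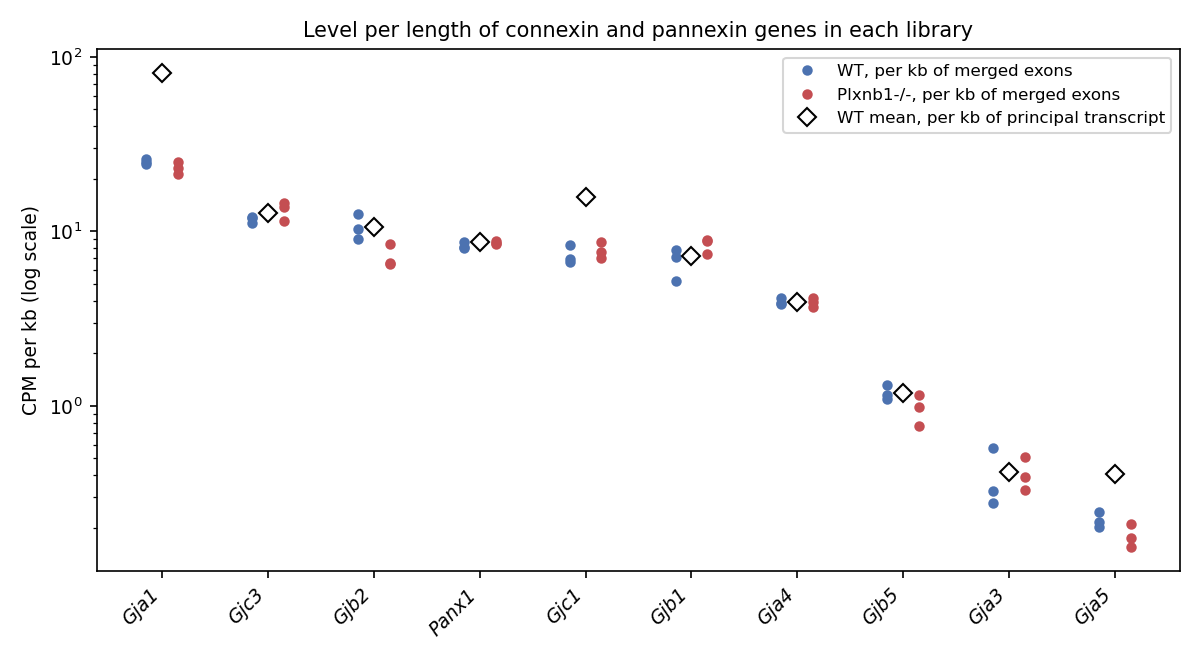
Level per length, in CPM per kb on a log axis, of 10 connexin and pannexin genes with a mean of at least 0.5 CPM; each filled point is 1 library (blue WT, red Plxnb1-/-) by merged exons, and open diamonds are WT means per kb of the principal transcript. Gja1 leads on both scales, its diamond at 80.8 standing well above its merged-exon points, and Gjc1 rises from 7.32 to 15.8 with the shorter length.

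The order depends on the length used. The merged exons of Gja1 measure 10.257 kb and those of Gjc1 5.003 kb, against 3.182 and 2.314 kb for the principal transcript of each. Per kb of the principal transcript, a scale chosen after the data were seen, Gja1 rose to 80.8 in WT and Gjc1 to 15.8, above Gjc3 at 12.7, Gjb2 at 10.6, Panx1 at 8.69 and Gjb1 at 7.24. On that scale too Gjb2 was the lowest of the 6 in Plxnb1-/- cultures, at 7.20 against 9.02 for Gjb1, the next lowest.

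The comparison of genotypes asked whether loss of Plexin-B1 goes with a different set of channel transcripts. By edgeR's quasi-likelihood test none of the 6 genes was called (adjusted p below 0.05 and absolute log2 fold change above 0.25), where 0.0358% of all tested genes, 8 of 22318, were called. Their adjusted p ran from 0.266 for Gjb2 to 0.744 for Gjc1, and 1 of them, Gjb2, had an unadjusted p below 0.05, as 13.7% of all tested genes did. DESeq2, the tool that the study's methods name, called 1 of the 6, again Gjb2, where it called 1.5% of all tested genes. That share counts 7358 genes to which DESeq2 gave no adjusted p. The paper reports gap junction activity among the terms tied to its down-regulated genes, from an enrichment analysis that was not repeated here. Gjb2 was also the 1 gene of 6 with all Plxnb1-/- cultures below all WT cultures, as in 10.4% of tested genes, and 0 of 6 had all of them above, against 9.3%. On balance 4 of the 6 were higher and 2 were lower in Plxnb1-/- cultures by their fitted values, with a median log2 fold change of 0.07 beside 0.00 over all tested genes.

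Gjb2 encodes Cx26, known from the supporting cells of the cochlea, the skin and the leptomeninges. WT replicates 1, 2 and 3 held 24.7, 30.3 and 21.9 CPM of it, and Plxnb1-/- replicates 1, 2 and 3 held 20.3, 15.7 and 16.0 CPM. WT replicate 2 was the highest of all and the Plxnb1-/- replicate 1 the highest of its genotype, only a little under the lowest WT culture, and the genotypes did not overlap. The means were 25.6 ± 4.26 and 17.3 ± 2.58 CPM, a log2 fold change of −0.56 (standard error 0.13, 95% interval −0.86 to −0.26), or 0.678 of the WT level. edgeR's quasi-likelihood test gave an unadjusted p of 0.00215, the rank 175 among all tested genes, and an adjusted p of 0.266, so the gene was not called. DESeq2 gave the same fold change of −0.56 with an adjusted p of 0.00410 and called it. The exact permutation test of the log2 CPM values, two-sided, gave p = 0.1, which is as low as 3 against 3 can go. In bulk samples fewer cells of a type and less RNA per cell cannot be told apart, so these values do not say which of them differed. Without WT replicate 2 the log2 fold change was −0.42 with an adjusted p of 0.349 in edgeR.

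**Figure D2:**
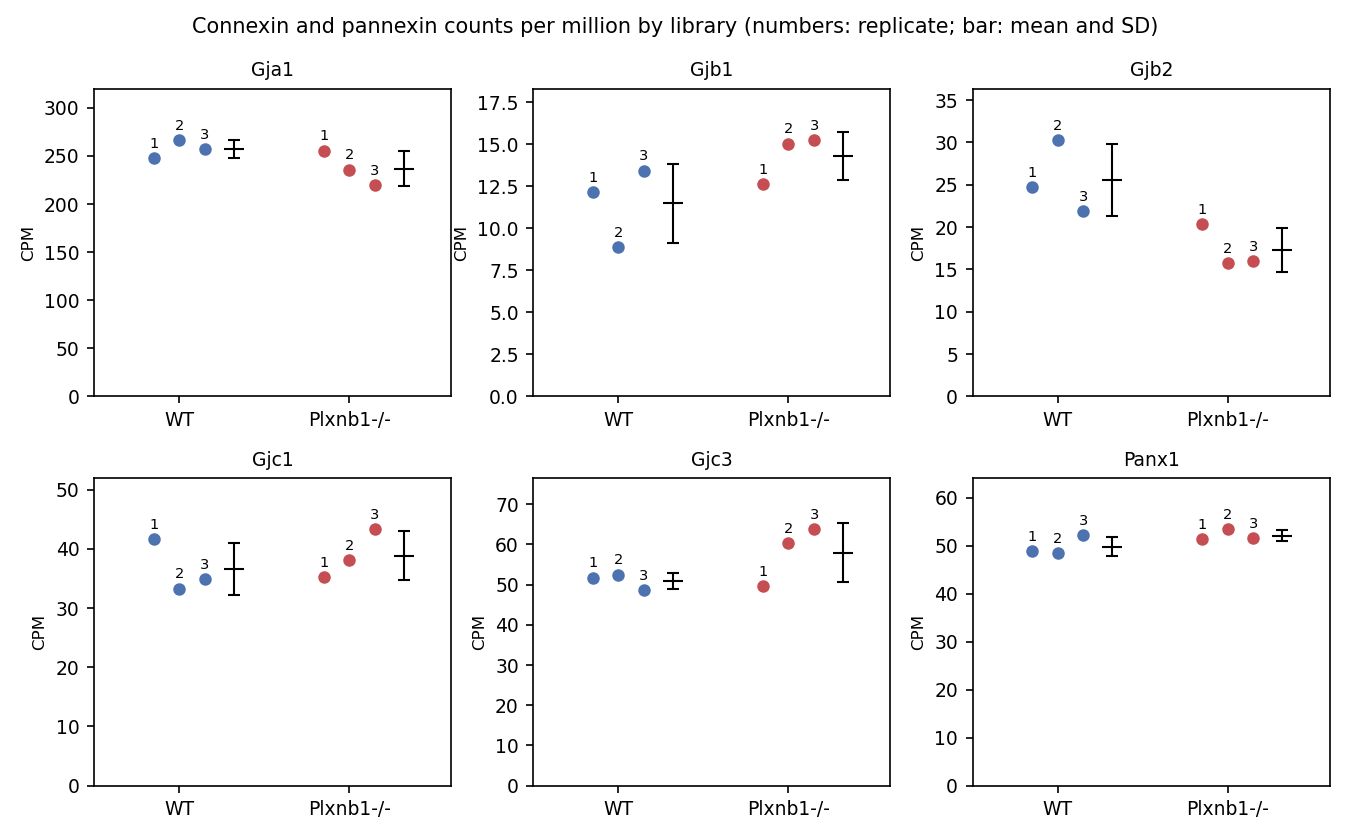
CPM of the 6 genes in each library, 1 panel per gene with its own axis from 0; points carry the replicate number (blue WT, red Plxnb1-/-), and the black bar beside them is the mean with its SD over 3 cultures. In the Gjb2 panel the Plxnb1-/- points, 15.7 to 20.3, all lie under the WT points, 21.9 to 30.3, while the points of the genotypes overlap in the other 5 panels.

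Gjb1 leaned the other way. Its level was 12.1, 8.88 and 13.4 CPM in the WT cultures, in the order of their replicate numbers, and 12.6, 15.0 and 15.2 CPM in the Plxnb1-/- cultures. WT replicate 2 was the lowest of the 6 libraries, and Plxnb1-/- replicate 1 fell between WT replicates 1 and 3, so the genotypes overlapped. The means were 11.5 ± 2.33 and 14.3 ± 1.45 CPM, and the log2 fold change of 0.31 (95% interval −0.01 to 0.63) had an adjusted p of 0.370 by edgeR and 0.224 by DESeq2. The exact permutation p was 0.2. Without WT replicate 2 the log2 fold change was 0.16.

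Gjc3, the other connexin of SC myelin, stood at 51.7, 52.5 and 48.6 CPM in the WT cultures and at 49.6, 60.4 and 63.7 CPM in the Plxnb1-/- cultures, in the same order. Plxnb1-/- replicates 2 and 3 were above every WT culture, and replicate 1 was within the WT range. The log2 fold change was 0.18 (95% interval −0.01 to 0.38, adjusted p = 0.379 by edgeR, 0.301 by DESeq2), and the exact permutation p was 0.3.

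Gja1 is the connexin with the most counts here. The 3 WT cultures held 248, 266 and 257 CPM, and the Plxnb1-/- cultures held 255, 236 and 220 CPM. Plxnb1-/- replicates 2 and 3 were below every WT culture and replicate 1 was among them. The log2 fold change was −0.12 (95% interval −0.25 to 0.02, adjusted p = 0.413 by edgeR, 0.400 by DESeq2), so a fall of more than about 0.25 or a rise of more than 0.02 log2 units lies outside the interval.

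Gjc1 (Cx45) is known from the smooth muscle of vessels, the cardiac conduction system and neurons. Values by replicate were 41.6, 33.3 and 34.9 CPM (WT) and 35.2, 38.0 and 43.3 CPM (Plxnb1-/-). The cultures of the genotypes were interleaved, with a log2 fold change of 0.08 (95% interval −0.14 to 0.30, adjusted p = 0.744 by edgeR) and an exact permutation p of 0.5. The log2 fold change was 0.02 without WT replicate 2 and 0.00 without Plxnb1-/- replicate 3. Panx1 was the steadiest of the 6. Values by replicate were 48.9, 48.4 and 52.1 CPM (WT) and 51.3, 53.3 and 51.5 CPM (Plxnb1-/-), again overlapping. Its log2 fold change was 0.06 (95% interval −0.04 to 0.17, adjusted p = 0.567 by edgeR), so the interval leaves out changes past 0.17 in either direction. Panx1 lies on chromosome 9 (15002128 to 15045478, minus strand of GRCm38). Plxnb1 is on the same chromosome, but the distance between them was not examined, so this does not make them neighbors.

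**Figure D3:**
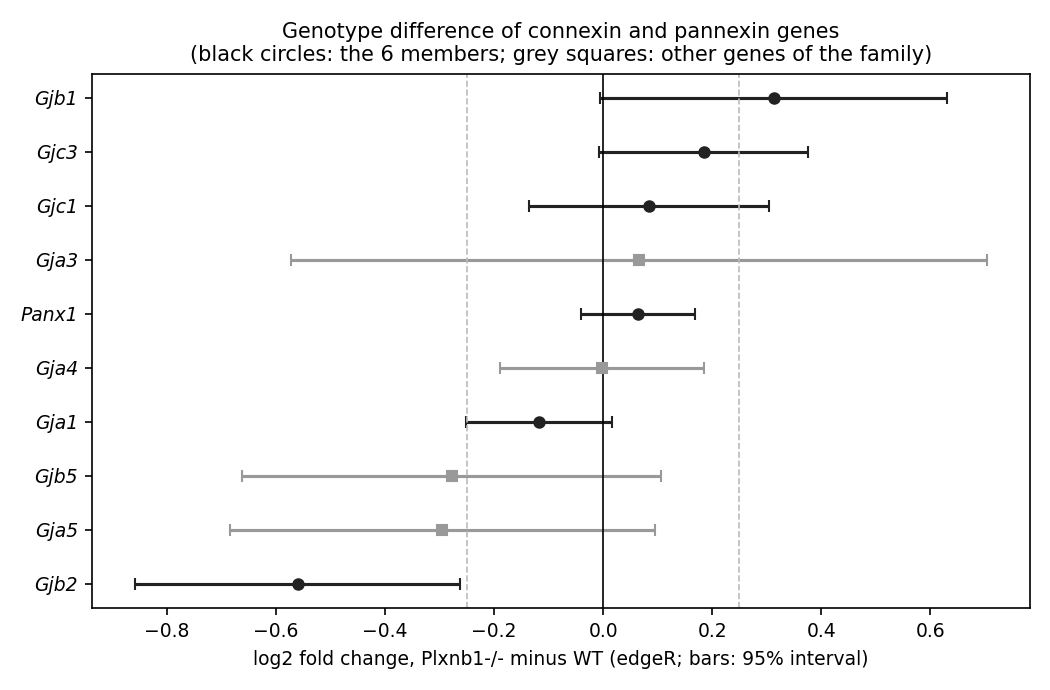
Fitted log2 fold change, Plxnb1-/- minus WT, of 10 connexin and pannexin genes with a mean of at least 0.5 CPM, with 95% intervals from edgeR; black circles are the 6 genes described, grey squares the other genes of the family, and dashed lines mark 0.25 in either direction. The interval of Gjb2 (−0.86 to −0.26) lies left of 0, and those of the other 9 genes shown include it.

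The balance between the transcripts was then described within each library, which takes the library size out of the values. Gjb1 and Gjb2 were set against each other because they leaned in opposite directions, so their ratio restates those differences and was not used as a test. The log2 ratio of Gjb1 to Gjb2 per kb of merged exons was −0.53, −1.27 and −0.21 in WT and −0.19, 0.43 and 0.43 in Plxnb1-/- replicates 1, 2 and 3. Gjb2 was thus ahead of Gjb1 in every WT culture and in 1 of the 3 Plxnb1-/- cultures. The genotypes did not overlap, but WT replicate 3 and Plxnb1-/- replicate 1 were nearly level. The difference was 0.89, or 0.59 without WT replicate 2. Of the 15 pairs among the 6 genes, the 5 whose ratio did not overlap between genotypes were those that hold Gjb2, the gene whose own values did not overlap.

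The sum over all 20 connexin genes was 85.2, 85.5 and 84.4 CPM per kb in WT and 83.2, 81.4 and 78.0 in Plxnb1-/- replicates 1, 2 and 3. Every Plxnb1-/- culture was below every WT culture, by 4.15 CPM per kb on average, and by 3.92 without WT replicate 2. Gjb2 alone went from 10.6 CPM per kb in WT to 7.20 in Plxnb1-/- cultures. The sum thus in large part restates the difference of Gjb2 and was not used as a test. Gjb2 made up 12.5% ± 2.01 of this sum in WT and 8.89% ± 1.11 in Plxnb1-/- cultures, without overlap. The share of Gjb1 was 7.91% ± 1.65 and 10.4% ± 1.33, and that of Gjc3 13.8% ± 0.463 and 16.5% ± 2.56, both with overlap. Gja1 held 29.5% ± 1.02 and 28.5% ± 1.27. These shares add up to the whole, so a lower share of 1 gene raises the others.

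**Figure D4:**
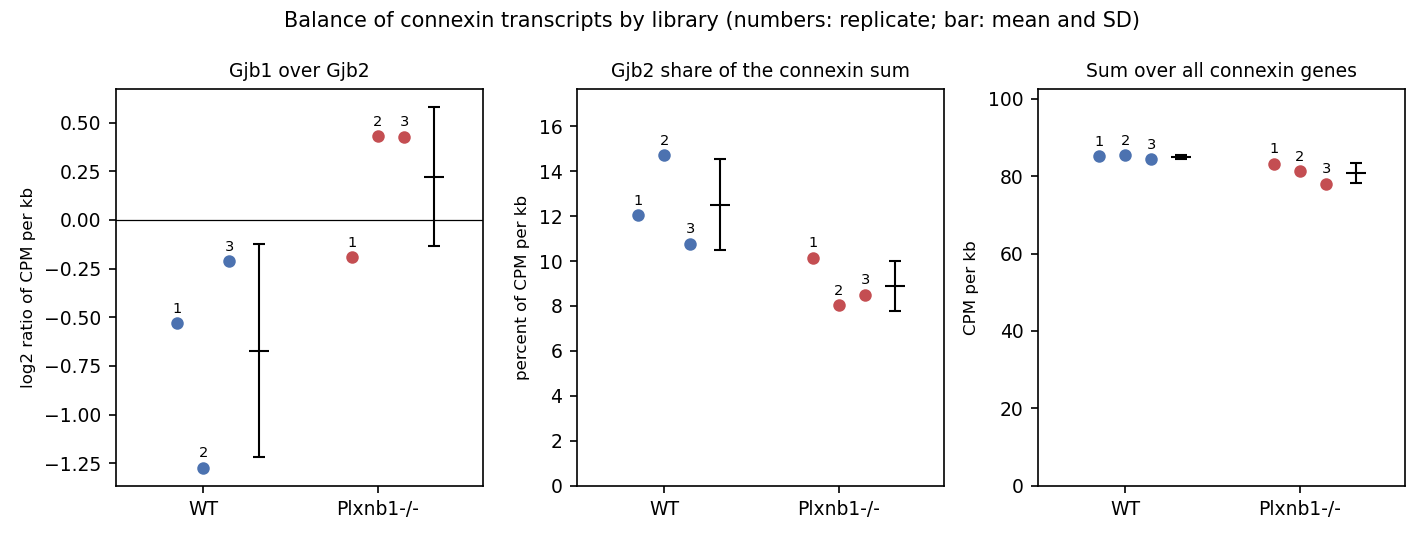
Left, log2 ratio of Gjb1 to Gjb2; middle, Gjb2 as a percent of the summed connexin level; right, that sum in CPM per kb of merged exons; points are libraries with their replicate number, and the bar is the mean with its SD. The genotypes do not overlap in any panel, and the narrowest gap is between WT replicate 3 (−0.21) and Plxnb1-/- replicate 1 (−0.19) in the left panel. Gjb2 enters the values of every panel.

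Of the 23 connexin and pannexin genes of the annotation, 15 passed the low-count filter, 5 of them with a higher and 10 with a lower fitted value in Plxnb1-/- cultures, and a median log2 fold change of −0.17 beside 0.00 over all tested genes. None was called by edgeR, and DESeq2 called Gjb2 alone. Gjb2 was among 3 of the 15 with an unadjusted p below 0.05 in edgeR, beside 13.7% of all tested genes. Outside the 6 genes described, Gja4 (Cx37), known from endothelium, measured 3.94 CPM per kb in both genotypes with a log2 fold change of −0.00. Gjb5, a connexin of skin, measured 2.04 CPM in WT, with a log2 fold change of −0.28 (not called, with overlap). Gja3, a lens connexin, and Gja5, a connexin of endothelium and atrium, measured 1.16 and 1.27 CPM in WT, with log2 fold changes of 0.07 and −0.30. All fold changes here are from edgeR, and none of these genes was called by edgeR or DESeq2.

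Gjb6 and Gjd3 passed the filter with at most 8 counts in any library, at or near the floor, and their fitted fold changes are not interpreted. Gjb6 (Cx30), the partner of Gjb2 in the cochlea and its neighbor on the same strand of chromosome 14 (Gjb2 from 57098600 to 57104702, Gjb6 from 57123303 to 57133611), had 2, 5 and 8 counts in WT and 2, 0 and 2 in Plxnb1-/- replicates. The other 8 genes of the family did not pass the filter. Among pannexins, Panx1 was the one detected beyond the floor, with 2830 to 4013 counts against at most 6 for Panx2 and 2 for Panx3.

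Of the 5 regulators of Gjb1 that were listed, 3 had higher and 2 had lower fitted values. None was called by edgeR or DESeq2, which called 0.0358% and 1.5% of all tested genes. Sox10, Egr2 and Nab1 had an unadjusted p below 0.05 in edgeR, as did 13.7% of all tested genes. Sox10 and Egr2, the transcription factors that drive Gjb1 in myelinating SCs, measured 486 and 550 CPM and 122 and 136 CPM in WT and Plxnb1-/- cultures. Their log2 fold changes were 0.18 (adjusted p = 0.359) and 0.16 (adjusted p = 0.315) by edgeR, both overlapping, beside 0.31 for Gjb1. Without WT replicate 2 they were 0.10 for Sox10, 0.16 for Egr2 and 0.16 for Gjb1. Nab2, a corepressor of the Egr proteins, was at 0.09, and Nab1 and Yy1 were at −0.14 and −0.02. Among the junction proteins of incisures and paranodes, 10 were tested, 7 higher and 3 lower, with a median log2 fold change of 0.02, and without WT replicate 2 it was 5 and 5. None was called by edgeR or DESeq2, and 0 had an unadjusted p below 0.05 in edgeR. Among those with a mean of at least 1 CPM the largest values in either direction were those of the claudin Cldn19 (0.62, adjusted p = 0.441, or 0.35 without WT replicate 2) and the cadherin Cdh1 (0.37, adjusted p = 0.510), both under 4 CPM, and the polarity proteins Pard3 (−0.11) and Patj (−0.06).

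The scaffold, trafficking and turnover proteins of connexins gave a similar picture. Of 17 tested, 10 were higher and 7 lower, with a median log2 fold change of 0.02 and none called by edgeR or DESeq2. Beside 13.7% of all tested genes, 1 of these proteins, Prkca, had an unadjusted p below 0.05 in edgeR. Among their extremes at a mean of at least 1 CPM were Ccn3 (0.17), a matricellular protein that binds Cx43, the kinase Prkca (0.13) and the actin-binding protein Dbn1 (−0.09). Tjp1, which encodes the scaffold ZO-1 that binds the tail of Cx43, measured 220 and 233 CPM with a log2 fold change of 0.08 and was higher in every Plxnb1-/- culture, as in 9.3% of tested genes.

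On the purinergic side, where ATP released by Panx1 would act, 16 genes were tested, 11 higher and 5 lower, with a median log2 fold change of 0.20 beside 0.00 over all tested genes. The SC markers had a median of 0.19, with 8 of 9 higher and 7 with an unadjusted p below 0.05 in edgeR. The summed purinergic level was lowest in WT replicate 2, at 482 CPM against 553 and 570 in the other WT cultures and 576 to 636 in Plxnb1-/- cultures. Without that library the purinergic median was 0.11, again with 11 higher and 5 lower. The SC marker median was then 0.15, again with 8 of 9 higher. The part of SC content in the purinergic values was not tested. None of the 16 was called by edgeR or DESeq2. An unadjusted p below 0.05 in edgeR was found for 4 (P2rx7, P2ry14, Entpd2 and Nt5e), beside 13.7% of all tested genes. P2rx7, the ATP-gated channel that works with Panx1, had a mean of 144 CPM in WT and of 177 CPM in Plxnb1-/- cultures. It was higher in every Plxnb1-/- culture, as in 9.3% of tested genes. Its log2 fold change was 0.29, with an adjusted p of 0.286 by edgeR and 0.0680 by DESeq2. Without WT replicate 2 its log2 fold change was 0.19. The extremes at a mean of at least 1 CPM were the receptors P2ry14 (0.54, adjusted p = 0.317) and P2ry6 (0.32, adjusted p = 0.447), and at the other end Nt5e (−0.41, adjusted p = 0.364), which makes adenosine from AMP, and the adenosine receptor Adora2b (−0.41, adjusted p = 0.369), all from edgeR. Without WT replicate 2, Nt5e and Adora2b were both at −0.17.

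Marker levels of SCs and of other cell types differed between the libraries. The summed level of the 9 SC markers was 2718, 2340 and 2779 CPM in WT and 2812, 3107 and 3172 CPM in Plxnb1-/- replicates 1, 2 and 3, with 8 of the 9 higher and no overlap of the sums. The ranks of Gjb1 over the 6 libraries followed those of this sum except that WT replicate 3 and Plxnb1-/- replicate 1 changed places. The 7 fibroblast markers summed to 933 to 1245 CPM in WT and 946 to 990 CPM in Plxnb1-/- cultures, with overlap and with 5 of 7 lower, or 3 of 7 without WT replicate 2. The sum was lowest in WT replicate 1, where Dcn was also lowest, at 234 CPM. Pdgfra held 61.3, 91.0 and 66.6 CPM in WT and 56.4 to 59.1 CPM in Plxnb1-/- cultures. Pdgfra and Thy1 were lower in every Plxnb1-/- culture, as in 10.4% of tested genes, and the other fibroblast markers overlapped. Thy1, the antigen of the depletion step, was at 429, 652 and 490 CPM in WT and 384 to 410 CPM in Plxnb1-/- cultures.

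The 4 mural markers, those of pericytes and smooth muscle, summed to 1490 to 1990 CPM in WT and 1366 to 1458 CPM in Plxnb1-/- cultures without overlap. The largest part of this sum was Acta2, at a mean of 969 CPM in WT and 724 CPM in Plxnb1-/- cultures, and 2 of the 4 markers were higher and 2 lower, with a median log2 fold change of −0.03. WT replicate 2 was the highest in this list, in the fibroblast list and in Gjb2. Within the Plxnb1-/- cultures replicate 1 was the highest for Gjb2 and for the mural sum, and replicate 3 for the fibroblast sum. Gjb2 was nearly level in replicates 2 and 3, at 15.7 and 16.0 CPM. The perineurial and meningeal markers, of interest since Gjb2 is a leptomeningeal connexin, summed to 303 to 309 CPM in WT and 311 to 333 CPM in Plxnb1-/- cultures. Of the 7 tested 3 were higher and 4 were lower, Lypd2 was at 0 in all 6 libraries and Slc6a13 at no more than 0.087 CPM. Itgb4, at a mean of 100 CPM in WT and 134 CPM in Plxnb1-/- cultures, rose by more than the whole sum did. Foxc1 and Foxd1 had log2 fold changes of −0.26 and −0.36, each without overlap, as in 10.4% of tested genes. Endothelial markers summed to 57.1 to 76.2 and 60.3 to 66.3 CPM, with Pecam1 at 1.08 to 3.72 CPM in all libraries. Most of that sum was Cdh5, at a mean of 59.9 CPM in WT and 57.6 CPM in Plxnb1-/- cultures. Macrophage markers summed to 23.0 to 25.3 CPM in WT and 26.6 to 29.3 CPM in Plxnb1-/- cultures, with all 5 higher. Neuron markers, of which Rbfox3 was under 1 CPM, summed to 132 to 146 and 147 to 160 CPM, and those of satellite glia to 762 to 883 and 906 to 933 CPM. Each of these sums was mostly a single gene. It was Tubb3 for neurons (mean 138 CPM in WT, 149 CPM in Plxnb1-/- cultures) and Kcnj10 for satellite glia (704 and 787 CPM). DESeq2 called Acta2 of the mural list and Foxd1 of the perineurial and meningeal list lower and Itgb4 of the latter higher, and edgeR called no marker. The part of these cell types in the values of Gjb2 and Gjb1 was not tested.

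**Figure D5:**
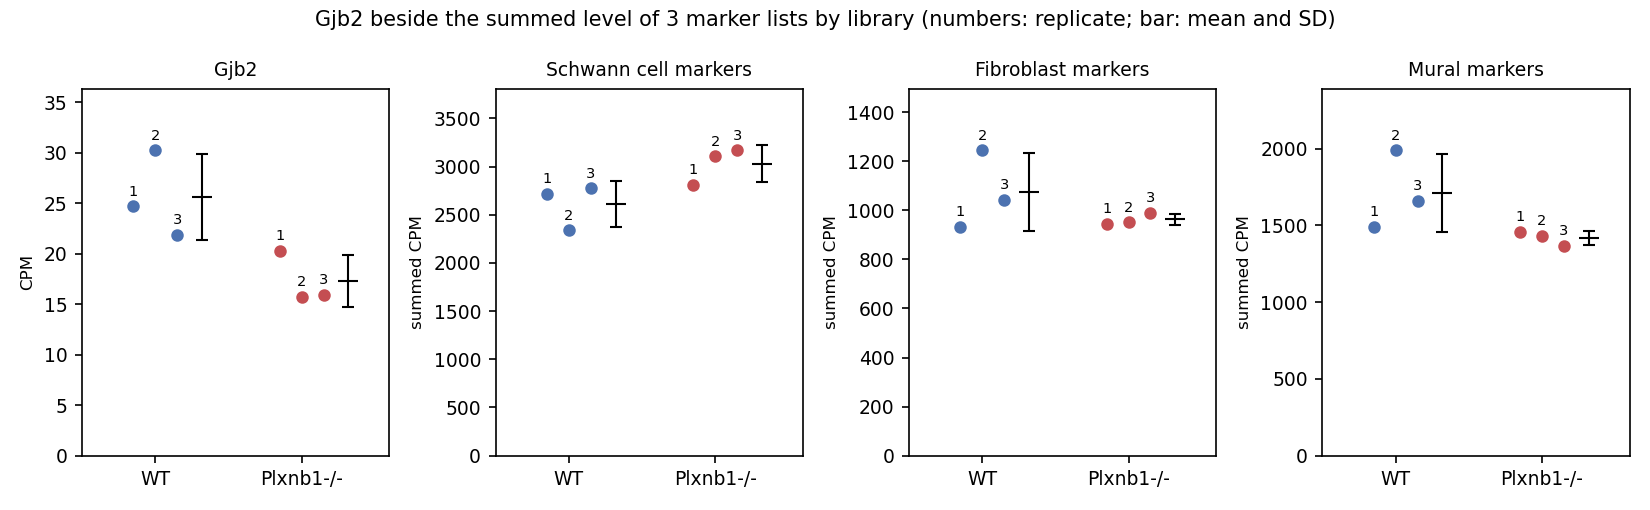
Gjb2 in CPM and the summed CPM of the SC, fibroblast and mural marker lists in each library; points carry the replicate number (blue WT, red Plxnb1-/-) and the bar is the mean with its SD. WT replicate 2 is the highest point for Gjb2 (30.3), fibroblast (1245) and mural (1990) markers and the lowest for SC markers (2340).

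The genes whose levels ran most nearly in parallel with each of the 6 over the 6 libraries were found by the root mean square distance between their centered log2 CPM, over 14975 genes with a mean of at least 1 CPM. For Gjb2 these were Gpat3 (distance 0.07), Prdm6 (0.08) and B3gnt3 (0.09), against a spread of 0.33 for Gjb2 about its own mean. For Gjb1 they were A330009N23Rik (0.03), Gm19744 (0.04) and Lrp4 (0.05), against a spread of 0.26. The nearest to Gja1 were Slc26a2, Hoxb4 and Zdhhc16, all at 0.02, and the nearest to Gjc3 were Steap3 (0.04), Adcy1 (0.04) and Akna (0.05). Gjc1 had Hirip3 (0.03), Mir6925 (0.03) and C530008M17Rik (0.04) beside it, and Panx1 had 4833439L19Rik, Asap1 and Nfrkb, all at 0.01. With 6 libraries and so many genes, close neighbors are found for any pattern, and no other member of the family was among them.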

How the data were processed

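Per the labels and the study's methods, libraries were made from poly(A) RNA with a stranded kit. The authors trimmed the reads with Trim Galore 0.6.5, aligned them to mm10 with Bowtie2 2.4.1, which does not span introns, removed duplicates with SAMtools 1.10 and deposited unnormalized exon counts per gene from featureCounts. The strand setting is not given in the sources used here. The authors also deposited FPKM, which divides by the gene span, introns included, in 99.5% of the genes compared (1% tolerance, at least 100 counts), so levels between genes were compared as CPM per kb of merged exons instead. Symbols and positions came from an earlier GENCODE release of the same build, which 55141 of the 55401 identifiers matched.

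Genes that reached 2 counts in 5 or more of the 6 libraries were tested with edgeR 4.0.16 (TMM, quasi-likelihood, genotype as the only term; R 4.3.3) and Benjamini-Hochberg adjustment over all 22318. DESeq2 1.42.0, the tool of the study, limma 3.58.1 on log2(FPKM + 0.1) and log2(FPKM + 1), voom with sample weights, other scalings, filters and the replicate number as a block were alternatives, as was each library left out. Tested on simulated data (21745 genes), edgeR found 92 of 100 changes of 1 log2 unit and 58 of 100 changes of 0.5, with 15 false calls. DESeq2 found 95 and 66 of them, with 27 false calls. The changes were set only in genes with higher counts, and no outlying library like WT replicate 2 was simulated. These rates need not hold for the cultures. The remaining steps used SciPy 1.17.1, pandas 2.3.3 and Python 3.11.15.

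The genes, the lists and the tests were chosen with earlier results of these data known. Besides the 6 genes, the text names the other connexins and pannexins that passed the filter, the called genes and 2 largest rises and falls of each list at a mean of at least 1 CPM, Sox10, Egr2, Plxnb1, and the 3 nearest genes to each of the 6; Panx2, Panx3, Tjp1, P2rx7, Entpd2, the remaining regulators of Gjb1 and single markers were added after their values were seen. Some genes that this rule covers are not reported here.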

Additional observations from a re-analysis of the deposited data

How the results depend on the processing

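Over 18 alternatives each of the 6 genes kept the sign of its log2 fold change, though that of Gjc1 came down to 0.00 without Plxnb1-/- replicate 3. The alternative without a fold change cutoff uses the main fit, so its signs could not differ. The others share most or all of the 6 libraries and are not independent checks. With 1 library left out, Gja1 ran from −0.18 to −0.07, Gjb1 from 0.16 to 0.44, Gjc1 from 0.00 to 0.19, Gjc3 from 0.11 to 0.28 and Panx1 from 0.05 to 0.10. Gjb2 ran from −0.69 to −0.42, with adjusted p from 0.132 to 0.683 in edgeR. It passed under DESeq2 (−0.56, adjusted p = 0.00410) and in edgeR without the low-count filter (−0.56, adjusted p = 0.0190), which makes 1 of the 6 genes called under each, and under no other alternative. The cause was not tested. The number of genes called, 8, moved to 335 with DESeq2, 296 with no low-count filter, 13 with voom sample weights, 3 with limma on either log2 FPKM scale, and 4 to 25 with 1 library left out, the 25 without WT replicate 2. The lowest adjusted p over the alternatives was 0.333 for Gja1, 0.224 for Gjb1, 0.318 for Gjc1, 0.278 for Gjc3 and 0.453 for Panx1.

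Replicate numbers are shared by the genotypes, but same-numbered libraries did not deviate together (r = −0.02, 0.01 and 0.07 over genes). With the replicate block 5 genes were called, and Gjb2 stood at −0.56 with an adjusted p of 0.191.

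Per kb of the principal transcript, added after seeing the data, the WT level went from 25.1 to 80.8 for Gja1, from 7.32 to 15.8 for Gjc1, from 11.7 to 12.7 for Gjc3 and from 8.26 to 8.69 for Panx1, and the difference in the connexin sum from −4.15 to −7.87, a change that follows from the shorter lengths. Depth did not limit the 6 genes, which had at least 520 counts in every library, but 3 cultures per genotype allow no permutation p under 0.1.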
